A study of Mus musculus with 200 samples.

Results

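The homeostatic astrocyte genes described here are 10 genes with known roles in the resting work of astrocytes: Aqp4, Slc1a2, Slc1a3, Gja1, Gjb6, Glul, Aldh1l1, Fgfr3, Ednrb and Pygm. They were chosen by gene name, and all 10 were found among the 56941 genes of the deposited tables. The samples were bulk RNA-seq libraries of mouse brain from 200 mice taken 9, 24 or 72 h after closed-head injury (CHI) or sham surgery. The question asked of each gene was whether its RNA level differed between CHI and sham, in which of the 4 strains, and for how long.

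The mice were C57BL/6J or came from lines labelled IL-1R1 gKO, then IL-1R1 eRestore, then IL-1R1 nRestore. At 9 h the CHI groups held 15, 13, 12 and 6 mice in that order, and the sham groups held 6, 6, 6 and 4. At 24 h the CHI groups held 14, 12, 9 and 8 mice and the sham groups 6, 6, 5 and 5. At 72 h the CHI groups held 14, 12, 12 and 6 mice and the sham groups 6, 6, 6 and 5. Ages ran from 3.3 to 7.67 months, and 102 mice were female and 98 male. The IL-1R1 nRestore groups were uneven in sex: all were male at 72 h, and 7 of the 8 CHI mice but 2 of the 5 sham mice were female at 24 h. The alleles, promoters and cell types behind the labels gKO, eRestore and nRestore are not given in the sources used here. By the study's methods, an impactor struck the intact skull once under isoflurane in CHI, and sham mice had the anaesthesia and scalp incision only. These methods, written for the C57BL/6J mice, also state that a single snap-frozen hemisphere was used, that surgery was always done in the morning, and that libraries were poly(A)-selected.

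Astrocytes clear the transmitter glutamate from synapses, turn it into glutamine, buffer potassium and water at their endfeet on blood vessels, and pass small molecules to each other through gap junctions. They also hold most of the glycogen of the brain. After injury, astrocytes turn on reactive genes such as Gfap, and the genes of their resting work are often measured beside these to see whether both move together. In bulk tissue, fewer cells of a type and less RNA per cell cannot be told apart.

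Total estimated counts per mouse ran from 14857985 to 57355676, with a median of 20258936, and the lowest count of any member in any mouse was 453, so that every member passed the filter on low counts in every comparison. The levels of 2 mice for the sex-linked genes Xist and Ddx3y went against their labelled sex (an IL-1R1 eRestore sham mouse at 24 h and an IL-1R1 nRestore CHI mouse at 72 h). Of the comparisons of CHI with sham within strain, over all strains and between time points, leaving out both mice changed the call of a single member value, which is given with the time points below. Il1r1 itself was detected in all mice, with a median of 2.00 TPM in C57BL/6J, 3.94 in the mice labelled IL-1R1 gKO, 3.09 in IL-1R1 eRestore and 3.83 in IL-1R1 nRestore. The whole-gene sum was thus not lower in the mice labelled IL-1R1 gKO, and it does not check that label.

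In sham mice the members spanned a wide range of levels. The unit that allows genes to be compared is TPM, the share of transcripts in a library, which is scaled for transcript length. Glul, the enzyme that makes glutamine from glutamate, stood at 1509 ± 148.5 TPM (SD, n = 67). Slc1a2, the main glutamate transporter of astrocytes (GLT-1), stood at 730 ± 75.5 TPM and Slc1a3, the second one (GLAST), at 316 ± 28.7 TPM. Gja1, which codes for connexin 43, had 155.3 ± 17.2 TPM. These 4 did not overlap with each other: the lowest sham mouse of each lay above the highest of the next.

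Next came Aqp4, the water channel of the endfeet, at 60.4 ± 9.00 TPM, Fgfr3, a fibroblast growth factor receptor, at 55.4 ± 7.89 TPM, Gjb6, which codes for connexin 30, at 55.1 ± 8.25 TPM, and Aldh1l1, a folate enzyme widely used as an astrocyte marker, at 50.9 ± 7.41 TPM. Neighbours in this order lay within each other's SD. Ednrb, the endothelin B receptor, followed at 33.1 ± 4.71 TPM and Pygm, the muscle form of glycogen phosphorylase that astrocytes also use, at 26.6 ± 3.74 TPM. Between mice, the coefficient of variation was lowest for Slc1a3 (9.09%), Glul (9.84%) and Slc1a2 (10.3%) and highest for Gjb6 (15.0%).

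**Figure D1:**
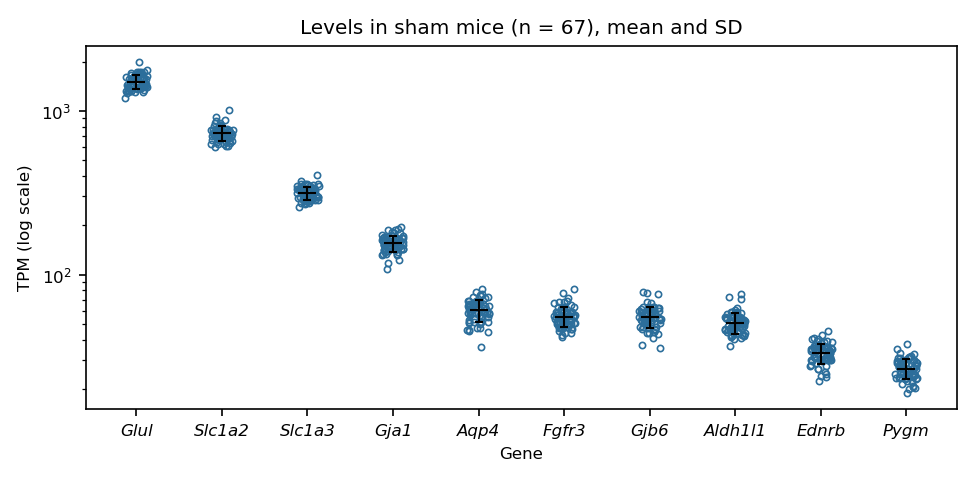
TPM (log scale) of the 10 members in the 67 sham mice, 1 point per mouse, with the mean and SD. Glul, Slc1a2, Slc1a3 and Gja1 stand apart from each other, Aqp4, Fgfr3, Gjb6 and Aldh1l1 lie at similar levels, and Pygm is lowest at 26.6 TPM.

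Among sham mice, no member differed between strains in the test over all strains, where 13.3% of the 17280 genes tested passed. Sham mice did differ between time points. At 24 h against 9 h, 1 member was higher and 4 were lower, where 47.9% of all genes passed (23.4% as higher and 24.5% as lower). The higher one was Ednrb (log2 difference 0.15, SE 0.05), and Slc1a2 was lower by the most (-0.22, SE 0.05). At 72 h against 9 h, 1 member was higher and 6 were lower (46.6% of all genes passed, 22.9% as higher and 23.7% as lower), and between 72 and 24 h no member and no gene passed (0.00%), with adjusted p for members of 0.895 and above (edgeR quasi-likelihood test). No experiment held mice of 9 h together with mice of a later time, and by the study's methods, given for C57BL/6J, time after surgery also set the time of day of collection, so that time after surgery, experiment and time of day cannot be told apart. Each CHI group is therefore compared with the sham mice of its own time.

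Gjb6 and Slc1a2 are shown here by the 300 bases that lie directly before their annotated starts, since only their windows, of those searched, overlap no annotated exon. Of the members, Gjb6 had the largest difference after CHI, and Slc1a2, a gene of far higher level, had none that passed. The Gjb6 gene lies at chr14:57360757-57371087 on the minus strand and its window at chr14:57371088-57371387. Slc1a2 lies at chr2:102488574-102621129 on the plus strand and its window at chr2:102488274-102488573 (GRCm39, GENCODE). Both are read 5′ to 3′ along the gene from the GRCm39 genome.
Gjb6: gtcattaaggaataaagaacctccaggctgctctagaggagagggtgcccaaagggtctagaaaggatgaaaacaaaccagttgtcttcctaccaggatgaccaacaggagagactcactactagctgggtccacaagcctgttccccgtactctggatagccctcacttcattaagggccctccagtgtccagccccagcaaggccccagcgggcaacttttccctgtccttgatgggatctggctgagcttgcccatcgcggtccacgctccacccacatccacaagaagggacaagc
Slc1a2: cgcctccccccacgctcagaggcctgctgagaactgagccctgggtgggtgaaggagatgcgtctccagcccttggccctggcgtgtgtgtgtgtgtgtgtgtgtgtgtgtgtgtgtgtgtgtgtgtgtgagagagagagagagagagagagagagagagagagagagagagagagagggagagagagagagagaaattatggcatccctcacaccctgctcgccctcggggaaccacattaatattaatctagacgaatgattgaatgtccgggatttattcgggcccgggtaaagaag
The windows have a GC content of 55.0% for Gjb6 and 54.7% for Slc1a2, and that of Slc1a2 holds a long run of gt and ga repeats. Each was searched on both strands for the glucocorticoid receptor half-site TGTTCT, the E-box CACGTG, a STAT motif TTCNNNGAA and the NFI motif. Neither window held any of these, so no base is in capitals. Over 21603 promoter windows of the same length, 17.4% held the half-site, 7.00% the E-box, 8.89% the STAT motif and 0.768% the NFI motif. The windows of Gja1, Glul, Aldh1l1, Fgfr3 and Pygm held none either, that of Ednrb held the half-site 92 bases before the start, and that of Slc1a3 held the half-site at 39 bases and also the STAT motif. These 7 windows overlap annotated exons and are not printed. The window of Aqp4 was not searched. A match or its absence in such a window is a description of letters.

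At 9 h over all strains (46 CHI, 22 sham), 4 members were higher and 2 were lower in CHI, where 26.5% of the 16657 genes tested passed, 12.7% as higher and 13.8% as lower. Gjb6, Aldh1l1, Pygm and Fgfr3 were higher and Ednrb and Gja1 were lower. Aqp4, Slc1a2, Slc1a3 and Glul did not pass. The median log2 fold change of the 10 members was 0.03, beside -0.01 for all genes tested. The members thus did not move in a common direction. All values below are TMM-normalised CPM (counts scaled to a common library total), which compare mice but not genes. Fold changes are from the edgeR quasi-likelihood fit with sex and age (and strain, where strains are pooled) as covariates. Where an experiment was fitted alone, age was left out, so its values are not adjusted as the pooled ones are. Benjamini–Hochberg adjustment was over all genes tested.

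Gjb6 had the largest change of the set. In C57BL/6J mice at 9 h, its level in sham mice ran from 42.6 over a median of 48.8 to 58.1 CPM, and in CHI mice from 68.02 over 79.3 to 92.8 CPM. Every CHI mouse lay above every sham mouse. This was a log2 fold change of 0.69 (SE 0.07, adjusted p = 3.27e-07), a level 1.61 times that of sham.

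In IL-1R1 nRestore mice at 9 h, the sham mice had 38.7, 41.0, 52.1 and 57.0 CPM of Gjb6, and the 6 CHI mice ran from 60.7 over 66.4 to 75.7 CPM. The groups did not overlap here either. Its log2 fold change was 0.69 (SE 0.09, adjusted p = 0.00456), but without sham replicate 3 it was 0.61 with an adjusted p of 0.130. In IL-1R1 gKO mice, CHI mice spread from 40.1 over 73.4 to 98.2 CPM against 46.7 over 55.0 to 56.3 CPM in sham, with 9 of 13 CHI mice above all sham mice and 1 below all of them (0.34, SE 0.14, adjusted p = 0.376). In IL-1R1 eRestore mice, CHI ran from 50.0 over 60.1 to 82.7 CPM and sham from 42.2 over 54.3 to 79.8 CPM, with a single CHI mouse above all sham mice (0.10, SE 0.12, adjusted p = 0.634).

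Over all strains the log2 fold change of Gjb6 at 9 h was 0.42 (SE 0.07, adjusted p = 1.13e-06), with 39 of 46 CHI mice above the median of the sham mice of their strain. It was 0.35 (SE 0.09, adjusted p = 0.0147), 0.39 (SE 0.13, adjusted p = 0.0610) and 0.54 (SE 0.12, adjusted p = 0.0234) in the 3 experiments that made up the 9 h mice when each was fitted alone. Whether the strains differed was tested directly. Gjb6 gave p = 0.00850 for any difference between strains, which did not pass after adjustment over all genes (adjusted p = 0.615). Against C57BL/6J, its CHI effect was lower by 0.55 in IL-1R1 eRestore mice (SE 0.16, adjusted p = 0.186), by 0.34 in IL-1R1 gKO mice (SE 0.16, adjusted p = 0.756) and by 0.14 in IL-1R1 nRestore mice (SE 0.19, adjusted p = 0.997). These contrasts share the C57BL/6J mice. All IL-1R1 nRestore mice at 9 h came from the last of the 3 experiments, which held no C57BL/6J or IL-1R1 eRestore mice. IL-1R1 nRestore mice made up 6 of its 12 CHI and 4 of its 6 sham mice. Its fit alone is thus not separate from that strain. Ages were 3.3 to 4 months in IL-1R1 nRestore and 4.4 to 4.8 in C57BL/6J. The IL-1R1 nRestore contrast, and its part in the test of any difference, cannot tell strain from experiment or age. The other mice of that experiment were IL-1R1 gKO, a strain with ages from 3.3 months at 9 h. The IL-1R1 gKO contrast thus mixes strain with experiment and age in part.

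Gja1, the partner connexin, went the other way by a small amount. Over all strains at 9 h it had a median of 232.7 and a highest value of 271.1 CPM in sham and ran from 174.9 over 213.7 to 271.9 CPM in CHI. The groups overlapped widely, and 36 of 46 CHI mice lay below the sham median of their strain. The log2 fold change was -0.10 (SE 0.04, adjusted p = 0.0396). It passed in 4 of 13 alternative settings, with values from -0.14 to -0.07, and in no strain alone.

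**Figure D2:**
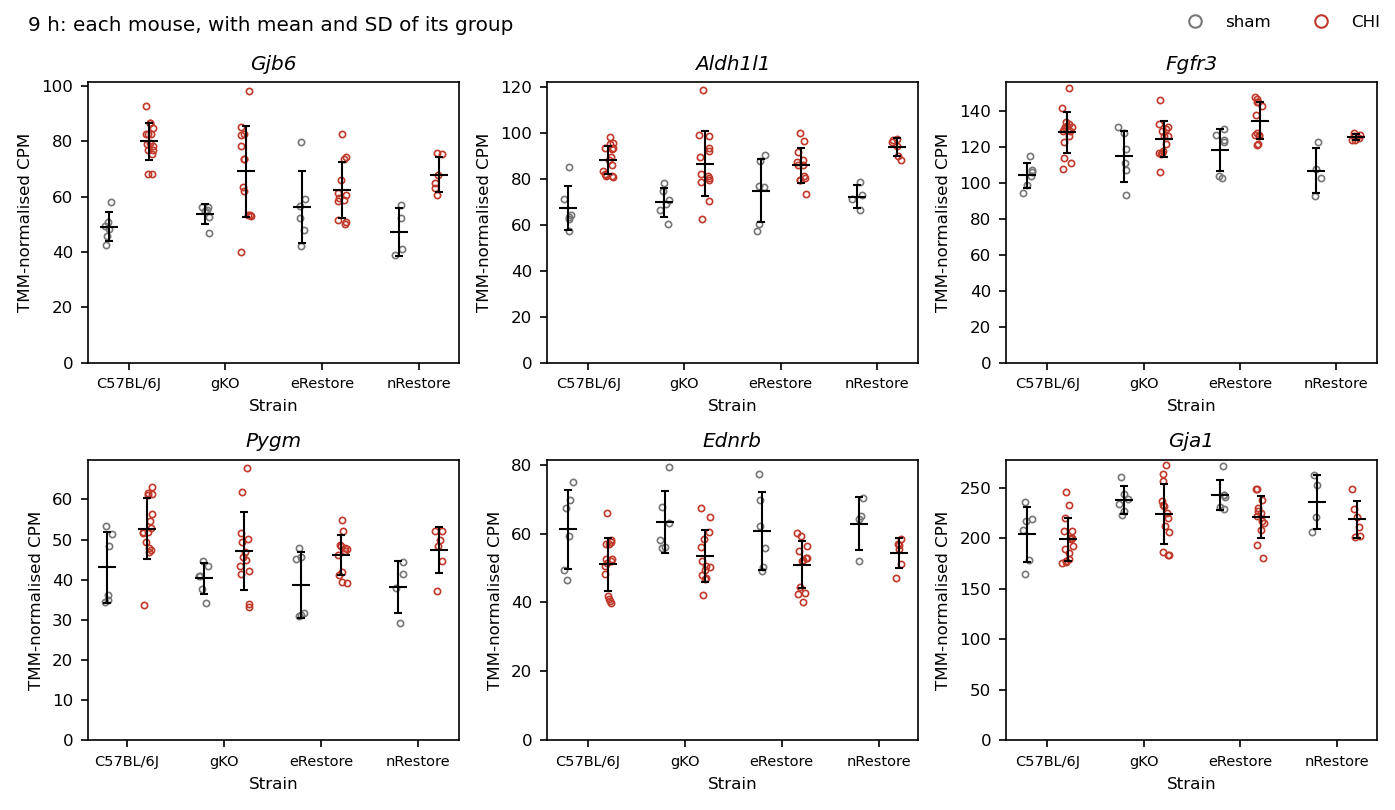
TMM-normalised CPM at 9 h of the 6 members that passed over all strains, with grey points for sham mice, red points for CHI mice and the mean and SD of each group, by strain. In C57BL/6J all CHI mice lie above all sham mice for Gjb6 (from 68.02 against at most 58.1 CPM), while for Gja1 the groups overlap.

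Aldh1l1, which handles formyl-folate, was higher in CHI at 9 h in nearly every mouse. In C57BL/6J the sham mice ran from 57.5 over 63.9 to 85.1 CPM and the CHI mice from 81.1 over 88.5 to 98.5 CPM. In the CHI group 9 of 15 mice lay above all sham mice, and all 15 lay above the sham median. This was a log2 fold change of 0.38 (SE 0.07, adjusted p = 0.000515) and passed in all 12 alternative settings. IL-1R1 nRestore sham mice had 66.7, 71.1, 73.0 and 78.5 CPM and the 6 CHI mice ran from 88.3 over 95.3 to 97.4 CPM, without overlap. The log2 fold change there was 0.41 (SE 0.07, adjusted p = 0.0206). Without sham replicate 1, 3 or 4 of that strain the adjusted p was 0.0871, 0.136 or 0.0670, at a log2 fold change of 0.41, 0.48 or 0.37.

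In IL-1R1 gKO mice Aldh1l1 ran from 62.8 over 82.4 to 118.6 CPM in CHI and from 60.4 over 70.0 to 78.3 CPM in sham (0.29, SE 0.10, adjusted p = 0.241). In IL-1R1 eRestore mice it ran from 73.6 over 86.2 to 100 CPM in CHI and from 57.3 over 76.7 to 90.3 CPM in sham (0.17, SE 0.08, adjusted p = 0.206). Neither passed, although 12 of 13 and 11 of 12 CHI mice lay above the sham median. Without sham replicate 6 of IL-1R1 eRestore, the value was 0.25 with an adjusted p of 0.0408. Over all strains 44 of 46 CHI mice lay above the sham median of their strain, and the log2 fold change of 0.31 (SE 0.04, adjusted p = 1.41e-07) passed in all 13 alternative settings, each experiment alone included.

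Fgfr3, the receptor, had 94.7 to 114.8 CPM in C57BL/6J sham mice (mean 104.3) and 107.7 to 152.9 CPM in CHI mice (mean 128.3) at 9 h. In this strain 12 of 15 CHI mice lay above all sham mice. Its log2 fold change was 0.29 (SE 0.06, adjusted p = 0.00138). In IL-1R1 nRestore mice the sham values were 92.9, 102.9, 108.5 and 122.7 CPM and the 6 CHI mice lay close together between 123.6 and 128.2 CPM (0.33, SE 0.07, adjusted p = 0.0477), a call that passed in 4 of 10 alternative settings and not without sham replicate 1, 3 or 4, where the values were 0.36, 0.26 and 0.33 with adjusted p of 0.102, 0.426 and 0.116. IL-1R1 gKO had 0.12 (SE 0.08, adjusted p = 0.624) and IL-1R1 eRestore 0.15 (SE 0.06, adjusted p = 0.125). Over all strains the log2 fold change was 0.20 (SE 0.03, adjusted p = 4.49e-06), with 43 of 46 CHI mice above the sham median of their strain. In the 3 experiments alone it was 0.19, 0.26 and 0.21, and the last did not pass (adjusted p = 0.115).

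Pygm, which breaks down glycogen, ran from 29.3 over 41.0 to 53.3 CPM in the sham mice of all strains at 9 h and from 33.2 over 48.3 to 67.9 CPM in the CHI mice. Its log2 fold change over all strains was 0.26 (SE 0.06, adjusted p = 0.000569), and 42 of 46 CHI mice lay above the sham median of their strain. The values within strain lay close to each other, between 0.22 and 0.38, and none passed alone, while without sham replicate 4 the value in C57BL/6J was 0.36 and passed (adjusted p = 0.0389). In the same 3 experiments alone Pygm had 0.22, 0.20 and 0.32, none of which passed (adjusted p = 0.0802, 0.356 and 0.0774).

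Ednrb, the receptor for endothelins, was lower in CHI at 9 h. Its level ran from 46.4 over 62.7 to 79.4 CPM in sham and from 39.7 over 52.2 to 67.4 CPM in CHI over all strains. No CHI mouse lay above all sham mice of its strain, and 41 of 46 lay below the sham median. The log2 fold change over all strains was -0.25 (SE 0.05, adjusted p = 9.03e-05), and the values within strain were -0.27 in C57BL/6J, -0.25 in IL-1R1 gKO, -0.28 in IL-1R1 eRestore and -0.14 in IL-1R1 nRestore. None of these passed alone (adjusted p = 0.0515 in C57BL/6J), although the DESeq2 Wald test called the C57BL/6J value (-0.27, adjusted p = 0.0409). Without sham replicate 1 or 3 of C57BL/6J, the value there was -0.31 or -0.33 with an adjusted p of 0.0457 or 0.0251. Without sham replicate 6 of IL-1R1 eRestore, that strain gave -0.34 with an adjusted p of 0.0434. The experiments alone gave -0.23, -0.27 and -0.29 over all strains, of which the last did not pass (adjusted p = 0.0617).

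The glutamate genes and the water channel did not pass over all strains at 9 h. Over all strains Slc1a2 ran from 3720 over 4617 to 6287 CPM in sham and from 3587 over 4575 to 5702 CPM in CHI (-0.07, SE 0.04, adjusted p = 0.197). The interval of 2 SE about its log2 fold change ran from -0.15 to 0.01. Slc1a3 had a log2 fold change of 0.00 with an interval from -0.08 to 0.08 (adjusted p = 0.978). Glul had 0.07 (-0.02 to 0.16, adjusted p = 0.235) and Aqp4 -0.13 (-0.24 to -0.02, adjusted p = 0.0743). With experiment as a covariate in place of age, Aqp4 was lower by more and passed (-0.16, adjusted p = 0.0210). In C57BL/6J alone Glul did pass: sham mice ran from 1920 over 2182 to 2600 CPM and CHI mice from 2134 over 2431 to 2893 CPM, a log2 fold change of 0.17 (SE 0.06, adjusted p = 0.0484) that passed in 4 of 12 alternative settings. Without sham replicate 1, 3, 4, 5 or 6 its adjusted p was 0.134, 0.137, 0.0966, 0.0639 or 0.0673.

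By strain at 9 h, 4 members passed in C57BL/6J (Gjb6, Aldh1l1, Fgfr3 and Glul, all higher), where 14.1% of genes passed (7.05% as higher and 7.00% as lower), and 3 in IL-1R1 nRestore (Gjb6, Aldh1l1 and Fgfr3, all higher), where 0.608% of genes passed (0.345% as higher and 0.262% as lower). In that strain the number fell to 0 without sham replicate 3 and to 1 without sham replicate 1 or 4. No member passed in IL-1R1 gKO mice (0.199% of genes) or in IL-1R1 eRestore mice (7.34% of genes). At an unadjusted p under 0.05, 18 of the 40 values within strain passed at 9 h. Of all genes, 4709 of 16967 passed this cut in C57BL/6J and 1784 of 16604 in IL-1R1 gKO. In IL-1R1 eRestore 4316 of 16652 did, and in IL-1R1 nRestore 2207 of 16788. The groups differ in size, and a call in some strains only does not show that the strains differ. The direct tests over the 3 time points called 0 of 30 member values at an adjusted p under 0.05 (lowest 0.615, with 5 of 30 under an unadjusted 0.05), where 0.00534%, 0.00541% and 0.00543% of all genes passed at 9, 24 and 72 h. Under the unadjusted 0.05 were 1219 of 18741 genes at 9 h, 1039 of 18495 at 24 h and 533 of 18408 at 72 h. For the contrasts with C57BL/6J at 9 h, 0.00% of genes passed in IL-1R1 gKO, 0.0107% in IL-1R1 eRestore and 0.00534% in IL-1R1 nRestore. The last of these contrasts also compares different experiments, and the IL-1R1 gKO contrast does so in part. The CHI effect differed between the sexes in none of 30 values either (lowest adjusted p = 0.913, 0 of 30 under an unadjusted 0.05), where 0.00%, 0.00% and 0.00565% of all genes passed. Here 370 of 17639, 916 of 17619 and 657 of 17707 genes lay under the unadjusted 0.05 at 9, 24 and 72 h.

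**Figure D3:**
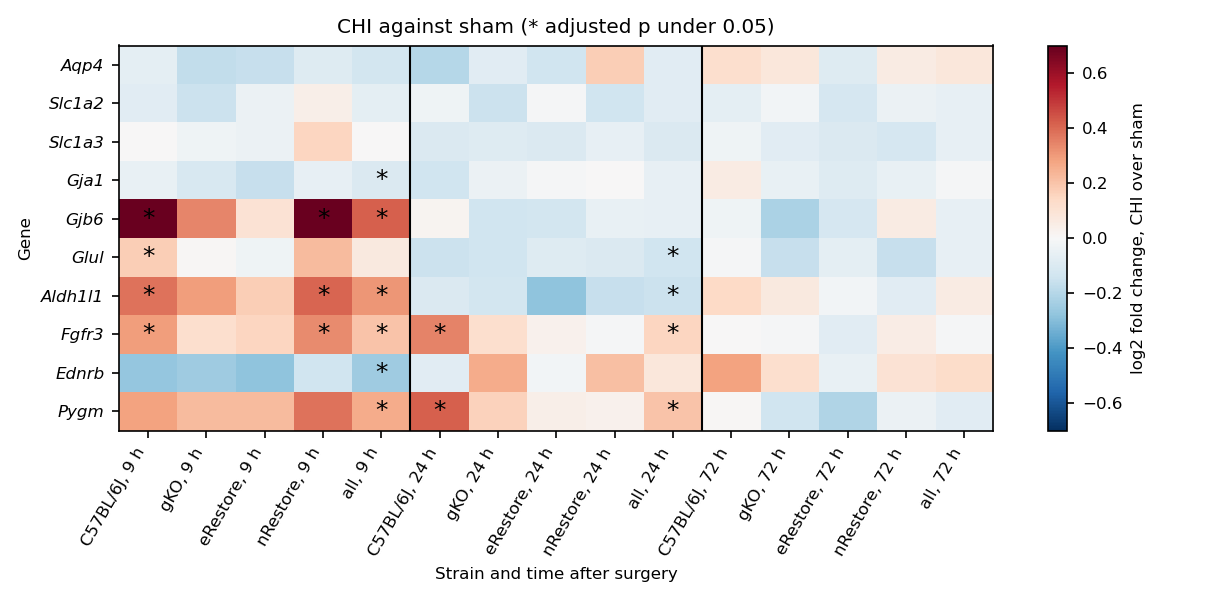
Log2 fold change of CHI over sham (colour) for each member (rows) in each strain and over all strains at each time (columns). Stars mark an adjusted p under 0.05, which fall on 13 values at 9 h, 6 at 24 h and none at 72 h.

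At 24 h the members that differed were partly others. Over all strains (43 CHI, 22 sham), 2 members were higher (Pygm and Fgfr3) and 2 were lower (Aldh1l1 and Glul), where 1.96% of the 16704 genes tested passed (0.826% as higher and 1.13% as lower). Without the C57BL/6J mice the pooled log2 fold changes of Pygm and Fgfr3 were 0.09 and 0.05 (adjusted p = 0.544 and 0.678). In C57BL/6J, Pygm ran from 37.5 over 40.0 to 43.2 CPM in sham and from 44.1 over 55.0 to 63.5 CPM in CHI. All 14 CHI mice lay above all 6 sham mice. The log2 fold change was 0.42 (SE 0.05, adjusted p = 9.22e-05), a level 1.34 times that of sham, and passed in all 12 alternative settings.

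Fgfr3 ran from 95.1 over 102.1 to 109.6 CPM in C57BL/6J sham mice at 24 h and from 107.2 over 127.1 to 147.9 CPM in CHI mice, with 13 of 14 CHI mice above all sham mice. This was a log2 fold change of 0.35 (SE 0.05, adjusted p = 0.000378) and passed in all 12 alternative settings. These were the only members that passed in C57BL/6J, where 0.404% of genes did (0.229% as higher and 0.175% as lower). No member passed in IL-1R1 gKO (0.00590% of genes), IL-1R1 eRestore (0.00%) or IL-1R1 nRestore mice (0.00%) at 24 h.

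In the other strains the values at 24 h were smaller. Part of the CHI mice of these strains came from an experiment that gave them no sham mice at 24 h. CHI ages there ran up to 7.4 months in IL-1R1 gKO and IL-1R1 eRestore and 7.2 in IL-1R1 nRestore, and sham ages up to 5.3. In these strains CHI is thus partly mixed with experiment and age, which also limits the tests between strains at 24 h. Pygm had a log2 fold change of 0.16 in IL-1R1 gKO (interval of 2 SE -0.09 to 0.41), 0.04 in IL-1R1 eRestore (-0.11 to 0.20) and 0.03 in IL-1R1 nRestore (-0.13 to 0.18). Fgfr3 had 0.12 (-0.04 to 0.27), 0.03 (-0.13 to 0.19) and -0.01 (-0.17 to 0.16) in the same order. The tests of any difference between strains gave p = 0.0102 for Pygm and p = 0.0112 for Fgfr3, which did not pass after adjustment (adjusted p = 0.667 and 0.682).

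The pooled values at 24 h were 0.20 for Pygm (SE 0.05, adjusted p = 0.0143), 0.15 for Fgfr3 (SE 0.04, adjusted p = 0.0318), -0.15 for Aldh1l1 (SE 0.04, adjusted p = 0.0324) and -0.14 for Glul (SE 0.04, adjusted p = 0.0430). Aldh1l1 ran from 50.5 over 62.6 to 73.7 CPM in sham and from 44.1 over 60.6 to 80.7 CPM in CHI, ranges that overlapped widely, and 30 of 43 CHI mice lay below the sham median of their strain. Both of these calls passed in 4 of 13 alternative settings. Without the C57BL/6J mice Aldh1l1 had -0.18 and Glul -0.14 (adjusted p = 0.115 and 0.233), and without the sex and age covariates they had -0.08 and -0.06 (adjusted p = 0.374 and 0.574). With experiment in place of age, Glul had -0.13 (adjusted p = 0.0588), and with gene-length offsets Aldh1l1 had -0.13 (adjusted p = 0.0863). An experiment that gave 18 of the CHI mice at 24 h gave a single sham mouse, so it could not be fitted alone. That sham mouse was C57BL/6J, and CHI mice of the other strains from this experiment had no sham mouse of their strain there. The pooled values at 24 h share this limit. In the other 2 experiments no member passed: Pygm had 0.27 (SE 0.07, adjusted p = 0.165) and 0.18 (SE 0.08, adjusted p = 0.841), and Fgfr3 had 0.21 (SE 0.05, adjusted p = 0.114) and 0.09 (SE 0.06, adjusted p = 0.943). Aldh1l1 had -0.13 (SE 0.05, adjusted p = 0.368) and -0.14 (SE 0.05, adjusted p = 0.825), while Glul had -0.03 (SE 0.03, adjusted p = 0.837) in the first and -0.25 (SE 0.08, adjusted p = 0.825) in the second. Gjb6 had a pooled log2 fold change of -0.06 at 24 h (interval of 2 SE -0.15 to 0.03, adjusted p = 0.562), and 22 of 43 CHI mice lay above the sham median of their strain.

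At 72 h no member passed over all strains (44 CHI, 23 sham), where 0.717% of the 16596 genes tested did. No member passed within C57BL/6J (0.00% of genes), IL-1R1 gKO (0.00%), IL-1R1 eRestore (0.00605%) or IL-1R1 nRestore (0.0121%) either. The log2 fold changes lay between -0.08 and 0.13. Ednrb came nearest, with sham mice from 54.3 over 67.5 to 78.3 CPM and CHI mice from 58.1 over 72.2 to 96.4 CPM (0.13, SE 0.04, adjusted p = 0.0591). In C57BL/6J, 11 of 14 CHI mice lay above all sham mice for Ednrb (0.28, SE 0.06, adjusted p = 0.147), a value that DESeq2 called (adjusted p = 0.0101, and 0.00426 with gene-length offsets). DESeq2 called the pooled value too (adjusted p = 0.0359 and 0.0194). At an unadjusted p under 0.05, 4 of the 40 values within strain passed at 72 h. Of all genes, 869 of 16875 passed this cut in C57BL/6J and 376 of 16709 in IL-1R1 gKO. In IL-1R1 eRestore 943 of 16536 did, and in IL-1R1 nRestore 930 of 16508.

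A fit of all 200 mice tested whether the difference between CHI and sham changed with time. Between 9 and 24 h, the effect differed for 3 members, where 10.7% of 20111 genes did (5.27% as higher and 5.47% as lower): it was larger at 9 h by 0.42 for Gjb6 (SE 0.09, adjusted p = 0.000184) and by 0.43 for Aldh1l1 (SE 0.06, adjusted p = 4.27e-08), and Ednrb differed by -0.35 (SE 0.06, adjusted p = 1.29e-05). Glul, at 0.18, did not pass (adjusted p = 0.0558) but passed at 0.18 with RLE factors in place of TMM (adjusted p = 0.0467), at 0.19 with experiment in place of age (adjusted p = 0.0278) and at 0.19 without the 2 mice that go against their labelled sex (adjusted p = 0.0429). Between 9 and 72 h the effect differed for 6 members, where 13.1% of genes did (6.37% as higher and 6.75% as lower). Gjb6 (0.50), Pygm (0.35), Aldh1l1 (0.26) and Fgfr3 (0.22) had a higher effect at 9 h, and Ednrb (-0.38) and Aqp4 (-0.21) a lower one. Between 24 and 72 h no member differed (0.0348% of genes), with a lowest adjusted p of 0.212 for Pygm. At 72 h Aldh1l1 had a pooled log2 fold change of 0.06 (SE 0.05, adjusted p = 0.831).

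**Figure D4:**
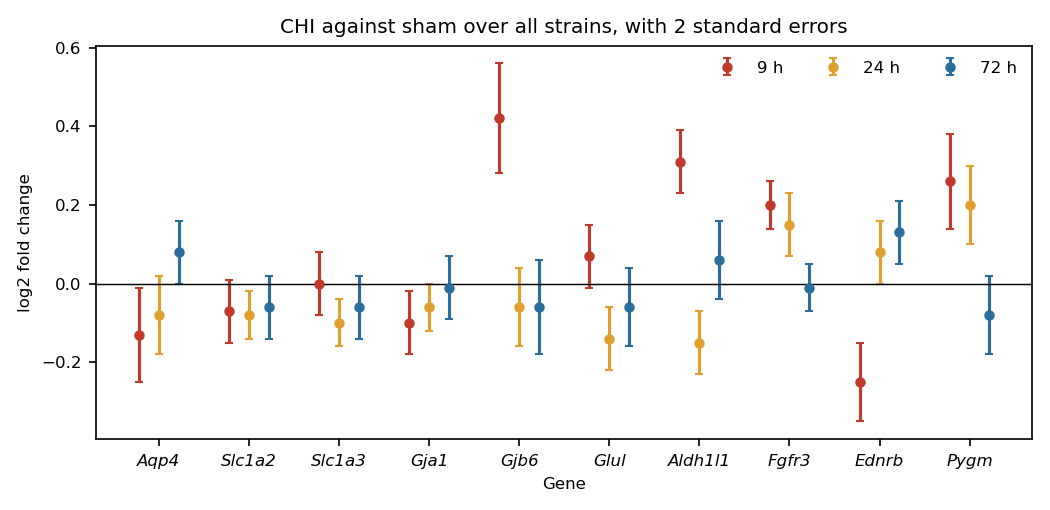
Log2 fold change of CHI over sham over all strains for each member, with bars of 2 SE, at 9 h (red), 24 h (orange) and 72 h (blue). Gjb6 and Aldh1l1 stand highest at 9 h (0.42 and 0.31), Ednrb lowest (-0.25), and most values at 72 h lie within 2 SE of 0.

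Other genes of the members' pathways were counted at 9 h over all strains, beside 12.7% of all genes higher and 13.8% lower. Of 12 further genes for glutamate, glutamine and GABA handling, 1 was higher and 4 were lower (median log2 fold change -0.02). Slc38a5, a glutamine transporter, fell by 1.18 (SE 0.16), Slc7a11, the cystine-glutamate exchanger, by 0.49 (SE 0.07) and Slc6a9, a glycine transporter, by 0.21 (SE 0.06). Of 14 genes for potassium, water and endfoot anchoring, none was higher and 4 were lower, among them the bicarbonate transporter Slc4a4 (-0.14, SE 0.04), the sodium pump regulator Fxyd1 (-0.26, SE 0.10) and the dystrophin relative Utrn (-0.26, SE 0.06). Of 9 further connexins and partners tested, 3 were lower and none higher. Gjb1 (-0.30, SE 0.12), a connexin of oligodendrocytes, and the junction scaffold Tjp1 (-0.14, SE 0.04) fell.

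Of 17 further glycogen genes, 2 were higher and 3 lower. Pgm1 (0.21, SE 0.04), which turns glucose-1-phosphate into glucose-6-phosphate, and the glycogen phosphatase Epm2a (0.15, SE 0.03) rose with Pygm, and Ugp2 (-0.22, SE 0.05), which makes the sugar donor for glycogen, fell. Of 15 genes of fibroblast growth factor and endothelin signalling, 2 were higher and 5 lower. The ligand Fgf2 rose by 0.56 (SE 0.08), the receptor Fgfr2 fell by 0.46 (SE 0.06), and Edn3, a ligand of the endothelin B receptor, fell by 0.84 (SE 0.10) beside Ednrb. Of 11 folate enzymes tested, 2 were higher and 1 lower: Mthfd1l (0.28, SE 0.05) and Shmt1 (0.29, SE 0.09) rose with Aldh1l1, and Tyms (-0.33, SE 0.13) fell.

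Of 26 other astrocyte-enriched genes, 2 were higher and 5 lower at 9 h (median -0.06). The protease Htra1 rose by 0.46 (SE 0.05), the sphingolipid receptor S1pr1 fell by 0.30 (SE 0.05) and Fjx1 fell by 0.31 (SE 0.05). The reactive list differed: 12 of 15 genes tested were higher and none lower (median 0.78), with Lcn2, an iron-binding secreted protein, at 3.42 (SE 0.42), Aspg at 1.20 (SE 0.16) and the oncostatin M receptor Osmr at 1.02 (SE 0.10). The summed level of the reactive list ran from 147.4 to 299.1 CPM in sham and from 219 to 650 CPM in CHI. At 24 h 4 of 14 reactive genes tested were higher (Serpina3n 0.67, SE 0.10) and at 72 h 4 of 11 (Gfap 0.69, SE 0.09), while for the other astrocyte-enriched genes the counts were 1 higher and 2 lower (S1pr1 -0.23, SE 0.04) at 24 h and none at 72 h. Gene lists of the other pathways held at most 1 call each at 24 h: Slc1a4 rose by 0.10 (SE 0.03), Dtna fell by 0.07 (SE 0.02) and Phkg1 fell by 0.22 (SE 0.06). None held a call at 72 h.

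Of 10 genes known to respond to glucocorticoids, 3 were higher and 1 lower at 9 h over all strains, with Fkbp5 at 1.35 (SE 0.14), Sult1a1 at 0.49 (SE 0.09) and Tsc22d3 at 0.23 (SE 0.07). Their summed level ran from 331 to 759 CPM in sham and from 329 to 956 CPM in CHI at 9 h. By strain at 9 h, 7 of 10 were higher in C57BL/6J (median 0.61), where 7.05% of all genes were. In IL-1R1 eRestore 1 was higher (median 0.07), where 682 of 16652 genes were higher and 7.34% passed in either direction. None passed in IL-1R1 gKO (median 0.05, 0.199% of genes) or IL-1R1 nRestore (median 0.32, 0.608% of genes). At 24 h over all strains 1 was lower (Pdk4 -0.19, SE 0.04) and at 72 h none passed. The part of this in the members' values was not tested.

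Markers of other cells moved at 9 h as well. All 5 markers of ependyma and choroid plexus were lower in CHI over all strains (median -1.46), with Ttr at -2.78 (SE 0.85), Folr1 at -2.00 (SE 0.61) and Otx2 at -1.46 (SE 0.45), and their summed level ran from 11.2 to 3356 CPM in sham and from 7.37 to 1603 CPM in CHI. None of them passed within a strain. Their median was -1.48 in C57BL/6J, -1.32 in IL-1R1 gKO and -2.28 in IL-1R1 eRestore. In IL-1R1 nRestore all 5 went the other way (median 0.91). Of all 200 mice, Folr1 was at 0 in 8 and Otx2 in 2. None of the 5 blood markers passed (Hba-a1 1.34, SE 0.56, Hbb-bs 1.22, SE 0.56, and Alas2 1.14, SE 0.53), with Alas2 at 0 in 48 of the 200 mice, and their sum ran from 0.583 to 137 CPM in sham and from 0.607 to 321 CPM in CHI. Of 6 microglial markers, 3 were lower at 9 h (P2ry12 -0.62, SE 0.08, Tmem119 -0.25, SE 0.07, Csf1r -0.15, SE 0.05), with sums from 274 to 450 CPM in sham and 204 to 430 CPM in CHI, and 5 were higher at 72 h. Their part in the members' values was not tested.

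Of 5 endothelial markers, 2 were higher (Cldn5 0.36, SE 0.08, and Pecam1 0.24, SE 0.06) and 2 lower (Tek -0.35, SE 0.07, and Flt1 -0.20, SE 0.05, the latter named after its values were seen) at 9 h, and of 4 pericyte and smooth muscle markers 1 was higher (Pdgfrb 0.19, SE 0.05) and 1 lower (Myh11 -0.33, SE 0.07), with Rgs5 at -0.15 (SE 0.06). Neuronal markers gave 1 higher of 7 (Rbfox3 0.16, SE 0.05, beside Slc17a7 at 0.13 and Gad1 at 0.06), with sums from 8543 to 11768 CPM in sham and 7685 to 11879 CPM in CHI. Of 4 oligodendrocyte precursor markers 1 was higher (Pdgfra 0.20, SE 0.04), with Cspg4 at 0.10 and Olig2 at -0.13. None of 6 oligodendrocyte markers passed (Mbp -0.06, Mog -0.09). At 24 h the neuronal marker Gad2 rose by 0.24 (SE 0.05) and Rgs5 fell by 0.12 (SE 0.03), and no other marker of these lists passed.

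Within groups the members varied together in part. Over 200 mice, the correlation of deviations from the group mean was 0.47 at the median of the 45 pairs of members, with 16 pairs above 0.5. It was highest between Slc1a3 and Glul (r = 0.75) and between Glul and Aldh1l1 (r = 0.74), and lowest between Gjb6 and Ednrb (r = 0.00). Mice share a library and a normalisation across genes, and a correlation with the logarithm of library depth ran from -0.07 for Gjb6 to 0.20 for Pygm. The non-member genes most like the mean of the members over the same 200 mice were Pla2g7, Glud1, Nadk2 and Slc39a12 (r = 0.81 each) and Acsbg1 (r = 0.80).

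Where the members lie bears on how their reads could be counted, since the strandedness of the libraries is not given in the sources used here. On GRCm39, Glul lies at chr1:153775690-153785469, Slc1a3 at chr15:8663604-8741595, Gja1 at chr10:56253241-56278609, Aldh1l1 at chr6:90463409-90577185, Fgfr3 at chr5:33879018-33894412, Ednrb at chr14:104052053-104081900 and Pygm at chr19:6430569-6448538. Of the 10 members, 8 overlap an annotated gene on the other strand (all but Ednrb and Pygm) and 3 (Slc1a3, Glul and Aldh1l1) an annotated gene on the same strand. Reads of such partners could not be told apart here.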

How the data were processed

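The data were bulk RNA-seq gene tables of 200 mouse brain samples. The authors aligned reads to GRCm39 with STAR and deposited estimated counts and TPM from Salmon, run through nf-core/rnaseq. The versions of STAR and Salmon, the annotation release and strandedness are not given in the sources used here. The authors' own tests used DESeq2. The deposited estimated counts were rounded to whole numbers and tested with edgeR 4.0.16 in R 4.3.3. The fits used TMM factors and the robust quasi-likelihood F test. Covariates were sex, age and, where strains were pooled, strain. Age was left out of the fits of a single experiment and of the fit of sham mice. Sex was left out where all mice of a fit shared it. A gene was kept if it reached 10 counts in a number of mice no smaller than the smaller group, and p-values were Benjamini–Hochberg adjusted with a threshold of 0.05 over all genes tested. The SE is the log2 fold change over the square root of F. Deposited TPM were used only to compare levels between genes. DESeq2 1.42.0 was an alternative. Groups came from the sample labels, and replicate numbers follow accession order. Nothing states that mice are independent of cage or litter.

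The members and lists were chosen with earlier results of these data known. Named beside the members were the 3 genes of each list with the smallest p over all strains at 9 h, the gene with the smallest p among those called at 24 or 72 h, the 5 genes most correlated with the members, and Il1r1, Xist and Ddx3y. Some genes that this rule names are not reported here. On simulated counts at log2 changes of 0.3, edgeR recovered 39 of 100 changed genes for C57BL/6J at 9 h (16967 genes). Over all strains at 9 h it recovered 90 of 100 (16657 genes). False calls were 8 and 7. The simulation changed a further 100 genes by 1 and held no effect of sex, age, strain or experiment. Fewer genes changed there than passed in the real fits, so these shares do not give the power in these data.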

Additional observations from a re-analysis of the deposited data

Results flagged for a closer look

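Each member was tested in each group of 4 to 10 mice for a mouse far from the rest, with Dixon's test. Of these 160 tests 6 found one, fewer than the about 1 in 20 that chance gives. The members share the mice of a group, so the tests are not independent. Aqp4 was lowest in an IL-1R1 nRestore CHI mouse at 24 h (107.2 CPM, next 142.7). A single IL-1R1 eRestore sham mouse at 72 h was highest for both Slc1a3 (821.8 CPM, next 645.2) and Fgfr3 (119.6 CPM). Gja1 was highest in an IL-1R1 eRestore sham mouse at 9 h (271.1 CPM, next 243.2), which is sham replicate 6, the mouse whose removal brought Aldh1l1 and Ednrb past the threshold in that strain. Gjb6 was lowest in an IL-1R1 gKO sham mouse at 9 h (46.74 CPM, next 52.58). Pygm was highest in an IL-1R1 nRestore CHI mouse at 72 h (49.58 CPM, next 34.52), a mouse whose Xist and Ddx3y levels go against its labelled sex.

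The CHI effect differed between time points for several members in the fit of all mice (edgeR, adjusted p). Between 9 and 24 h the log2 difference was 0.42 for Gjb6 (0.000184), 0.43 for Aldh1l1 (4.27e-08) and -0.35 for Ednrb (1.29e-05). Between 9 and 72 h it was 0.50 for Gjb6 (3.04e-06), 0.26 for Aldh1l1 (0.00126), 0.22 for Fgfr3 (0.000325), 0.35 for Pygm (0.000203), -0.38 for Ednrb (4.16e-07) and -0.21 for Aqp4 (0.0408). Time after surgery and experiment cannot be told apart here.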

How the results depend on the processing

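No paired analysis was possible because the labels give no replicate number that mice of 2 groups share, and the numbers used here follow accession order. Precision is limited by the 4 to 6 sham mice per group: SEs of members within strain at 9 h ran up to 0.17. The cause of the shifts below was not tested.

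The percent of genes called, out of those tested, moved by over 1.5 times in count as follows. With the DESeq2 Wald test it was 0.845 (C57BL/6J, 24 h), 0.243 (C57BL/6J, 72 h), 1.31 and 0.743 (IL-1R1 gKO, 9 and 24 h), 12.0, 0.333 and 0.0726 (IL-1R1 eRestore, 9, 24 and 72 h) and 2.38, 0.0176 and 0.0666 (IL-1R1 nRestore), against 0.404, 0.00, 0.199, 0.00590, 7.34, 0.00, 0.00605, 0.608, 0.00 and 0.0121 with edgeR. With gene-length offsets it was 0.130 (C57BL/6J, 72 h), 1.02, 0.495 and 0.0180 (IL-1R1 gKO), 0.230 and 0.0968 (IL-1R1 eRestore, 24 and 72 h) and 1.94, 0.0293 and 0.0242 (IL-1R1 nRestore). Without the filter it was 1.05 and 0.0126 (C57BL/6J, 24 and 72 h), 0.0465 (IL-1R1 gKO, 24 h), 0.305 (IL-1R1 eRestore, 24 h), 2.70 and 0.00949 (IL-1R1 nRestore, 9 and 24 h), 0.593 (all strains, 24 h), 0.00574 and 0.00 (strain difference, 9 and 72 h), 0.00280 and 0.00564 (sex difference, 24 and 72 h) and 0.0648 (24 minus 72 h). Without covariates it was 0.126 and 0.0354 (IL-1R1 gKO, 9 and 24 h), 4.42 (IL-1R1 eRestore, 9 h), 1.36 (IL-1R1 nRestore, 9 h) and 0.00 and 0.00 (strain difference, 24 and 72 h). With experiment in place of age it was 0.107 (C57BL/6J, 72 h), 0.464 and 0.00 (IL-1R1 gKO, 9 and 24 h), 0.977 (IL-1R1 nRestore, 9 h), 0.0267 (strain difference, 9 h), 1.28 (all strains, 24 h) and 0.0547 (24 minus 72 h).

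Over all strains at 9 h it was 14.1 without C57BL/6J and 9.70, 11.2 and 2.76 in the experiments eIL-1-76, eIL-1-80 and TM-2-33 alone. At 24 h it was 0.251, 0.445 and 0.863 without C57BL/6J, IL-1R1 gKO and IL-1R1 eRestore in turn, and 0.0980 and 0.00 in eIL-1-38 and NiL-1-24 alone. At 72 h it was 0.327, 0.439 and 0.457 without C57BL/6J, IL-1R1 eRestore and IL-1R1 nRestore in turn, and 0.223, 0.0119 and 0.0241 in eIL-1-38, eIL-1-56 and nIL-1-60 alone.

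Members called were 1 by both DESeq2 forms in C57BL/6J at 72 h (Ednrb) and 1 in IL-1R1 eRestore at 24 h by the DESeq2 Wald test and without the filter. Over all strains they were 3 and 2 at 9 h in eIL-1-80 and TM-2-33 alone. At 24 h they were 2 with gene-length offsets, without the filter, without covariates, without IL-1R1 eRestore or without IL-1R1 nRestore, 1 without IL-1R1 gKO and 0 without C57BL/6J or in either experiment alone. The share of all genes called at 24 h was 1.71% with gene-length offsets, 2.03% without covariates and 2.07% without IL-1R1 nRestore, and the other shares are given above. At 72 h they were 1 by both DESeq2 forms (0.819% and 0.681% of all genes) and 1 without IL-1R1 eRestore (0.439%). Between sham mice of 72 and 9 h, 3 were called without the filter, where 26.6% of all 35550 genes were.

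Leaving out each sham mouse in turn, the percent of genes called at 9, 24 and 72 h ran from 10.4 to 14.0, 0.102 to 0.317 and 0.00 to 0.00587 in C57BL/6J, from 0.0360 to 0.321, 0.00 to 0.0873 and 0.00 to 0.00 in IL-1R1 gKO, from 3.28 to 11.3, 0.00 to 0.00 and 0.00 to 0.00598 in IL-1R1 eRestore, and from 0.0700 to 1.27, 0.00 to 0.0116 and 0.00598 to 0.0239 in IL-1R1 nRestore. Members called at 9 h ran from 3 to 4 in C57BL/6J, 0 to 2 in IL-1R1 eRestore and 0 to 3 in IL-1R1 nRestore.

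Signs were followed for all members at 9 h, over all strains at 24 h and between time points. Within strain they were followed for Fgfr3 and Pygm at 24 h and Ednrb at 72 h. Over all strains at 72 h they were followed for Aqp4, Ednrb and Pygm. Other values also changed sign and are not listed, such as Aldh1l1 at 72 h, higher over all strains but -0.14 in eIL-1-56 alone. Among the values followed, those with a changed sign were all of uncalled members. Leaving out a sham mouse, at 9 h, they ranged in C57BL/6J from -0.14 to 0.03 (Aqp4) and -0.05 to 0.05 (Slc1a3), in IL-1R1 gKO from -0.06 to 0.01 (Slc1a3) and 0.00 to 0.03 (Glul), in IL-1R1 eRestore from -0.07 to 0.05 (Glul) and in IL-1R1 nRestore from -0.24 to 0.31 (Aqp4), -0.01 to 0.05 (Slc1a2), -0.14 to 0.15 (Gja1) and -0.23 to 0.06 (Ednrb). At 24 h Fgfr3 ranged from -0.02 to 0.07 in IL-1R1 eRestore and -0.02 to 0.06 in IL-1R1 nRestore, and Pygm from -0.03 to 0.11 there. With experiment in place of age, Glul had -0.01 (IL-1R1 gKO, 9 h), Ednrb 0.00 (IL-1R1 eRestore, 72 h) and Slc1a2 0.00 (9 minus 24 h). Without covariates, Fgfr3 had 0.07 (IL-1R1 nRestore, 24 h), Gjb6 0.04 (all strains, 24 h), Slc1a2 -0.02 (9 minus 24 h) and Slc1a2, Slc1a3 and Glul 0.01 each (24 minus 72 h). Pygm had -0.06 with gene-length offsets (IL-1R1 nRestore, 24 h). Over all strains, Slc1a3 at 9 h had 0.00 without the filter, 0.02 without IL-1R1 gKO or IL-1R1 eRestore and 0.11 in TM-2-33 alone, and at 24 h Slc1a2 had 0.01 and Gjb6 0.07 in eIL-1-38 alone. Leaving out the 2 mice that go against their labelled sex was chosen after seeing the data.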
